A study of Mus musculus with 10 samples.

Results

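The Hox genes encode homeodomain transcription factors and were read here in 10 dual dye arrays of mouse hemibrain RNA. A probe was counted as a Hox probe when its RefSeq accession carried the symbol of a gene of the Hoxa, Hoxb, Hoxc or Hoxd cluster. This gave 46 of the 41174 probes and 36 of the 39 Hox genes. Hoxc4, Hoxc6 and Hoxc11 had no matched probe and were not analysed here. Of the 36 genes, 26 had 1 probe and 10 had 2 probes, and the brighter probe, by the mean over both dyes, then stood for the gene.

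On each array, left hemibrain RNA of 1 male C57BL/6J mouse, a different animal each time, was labeled with Cy-5 and another RNA with Cy-3. The mice were 3 weeks old at the start, ate the standard diet (SD) or the n-3 PUFA enriched fish oil diet (FD) for 20 weeks, and were 5 months old at the end. The sample labels and the methods of the study describe the channels differently. In the labels every Cy-5 sample is FD and Cy-3 is pooled SD hemibrain, the descriptions call the same samples controls, and the methods name SD and FD arrays, set against reference RNA bought from the array maker. The diets were therefore not compared, and all 10 arrays were taken as 1 group of hemibrains of mixed or unknown diet. No array had its dyes swapped, so a difference between the dyes and a difference between the RNAs cannot be told apart. The Cy-3 RNA was not read as separate samples, so its own spread does not enter any p-value.

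Hox proteins assign position along the head-to-tail axis of the embryo. The genes lie in clusters, and their order on the chromosome follows the order in which they are used from the hindbrain to the tail, so that low paralog numbers mark the hindbrain and high numbers the lumbar and sacral cord. In the nervous system they are known for the identity of hindbrain segments and of spinal motor neurons, while the forebrain and midbrain develop largely without them. Retinoic acid and Cdx factors open the clusters, Polycomb complexes keep them silent and Trithorax proteins keep them active.

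The processed signals are fluorescence intensities in arbitrary units, and the main measure was log2 of Cy-5 over Cy-3, in which a negative value means less signal from hemibrain. A gene is called detected in a dye on an array when its probe carried the software's flag for a signal well above background. Between 49.8% and 76.9% of probes per array were detected in Cy-5 and between 61.9% and 79.1% in Cy-3, and no spot was saturated. The ratios of any pair of arrays correlated across probes at 0.868 to 0.967. The array of animal C10-434 stood apart, with a median background-subtracted Cy-5 signal of 28.5, where the other 9 arrays had 60.0 to 171. The labelled tissue was checked on 8 neuron genes, of which 7 were higher in Cy-5 (87.5%, against 30.6% of all genes). Their list median was 5.58 on the log2 scale. All 8 proliferation genes were lower, against 30.8% of all genes, with a median of -6.01.

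The promoters of 3 Hoxa genes are shown because the genes lie in the same cluster and gave the most different readings: a gene with more Cy-5 than Cy-3 signal, a gene detected in Cy-5 on every array but with less signal, and a gene not detected in Cy-5. The windows are the 250 bases before the RefSeq start in assembly GRCm38.p6, on the minus strand of chromosome 6, at chr6:52213068-52213317 for Hoxa3, chr6:52218574-52218823 for Hoxa7 and chr6:52245811-52246060 for Hoxa11. Capitals mark CG, the dinucleotide that mammals methylate and that reads the same on both strands.
Hoxa3: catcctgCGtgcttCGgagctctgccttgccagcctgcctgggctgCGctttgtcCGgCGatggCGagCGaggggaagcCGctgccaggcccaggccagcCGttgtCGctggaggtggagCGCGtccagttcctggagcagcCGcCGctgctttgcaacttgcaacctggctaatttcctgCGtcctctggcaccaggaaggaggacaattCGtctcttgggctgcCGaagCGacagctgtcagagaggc
Hoxa7: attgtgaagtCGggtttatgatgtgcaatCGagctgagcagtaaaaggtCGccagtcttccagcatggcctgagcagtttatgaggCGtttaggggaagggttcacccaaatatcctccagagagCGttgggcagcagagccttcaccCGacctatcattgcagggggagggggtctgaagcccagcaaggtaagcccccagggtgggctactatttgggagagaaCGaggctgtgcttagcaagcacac
Hoxa11: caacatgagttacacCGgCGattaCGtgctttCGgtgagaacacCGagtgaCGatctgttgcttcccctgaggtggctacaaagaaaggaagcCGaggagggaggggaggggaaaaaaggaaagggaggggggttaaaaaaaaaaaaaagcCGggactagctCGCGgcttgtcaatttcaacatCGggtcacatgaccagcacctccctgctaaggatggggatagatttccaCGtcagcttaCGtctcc
The Hoxa3 window held 18 CG, the Hoxa7 window 7 and the Hoxa11 window 13. The table held 24 such windows of 22 Hox genes, with 2 to 35 CG each and a median of 12.5, and 62.5% of them held at least 10. Over all 32851 windows the median was 6, and 37.8% held at least 10. The CG count is a description of the letters and was set against no signal.

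Most Hox genes gave less signal from hemibrain than from the Cy-3 RNA. A gene was called lower or higher when limma gave a Benjamini-Hochberg adjusted p under 0.05 over all 41174 probes and the mean ratio was at least 1.5-fold. By this rule 28 of the 36 Hox genes (77.8%) were lower, against 30.8% of all 18539 genes with a probe. Only Hoxa3 and Hoxd1 (5.56%) were higher, against 30.6% of all genes, and Hoxa13, Hoxb1, Hoxd3, Hoxd11, Hoxd12 and Hoxd13 were neither. Of the 46 Hox probes, 34 were lower (73.9%, against 31.6% of all probes) and 2 were higher (4.35%, against 27.3%). The median of the mean log2 ratios was -3.56 over the Hox genes and 0.04 over all genes. All 10 arrays were below 0 for 28 of the 36 Hox genes (77.8%), the same 28 that were called lower, and for 33.4% of all genes.

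**Figure D1:**
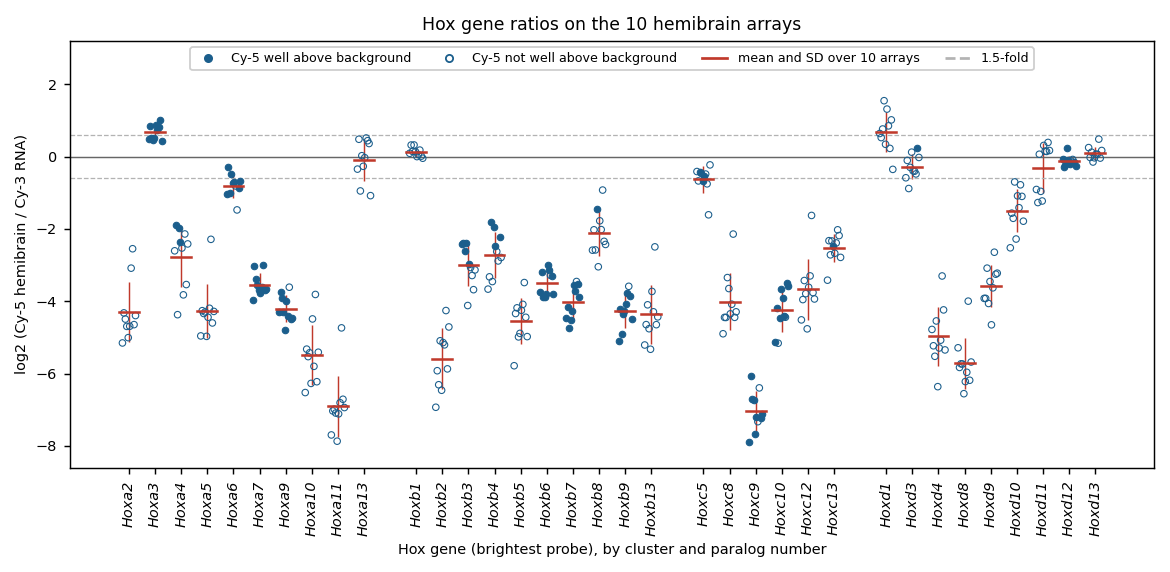
Log2 of Cy-5 over Cy-3 (vertical axis) of 35 Hox genes (horizontal axis), 1 point an array, with the mean and SD over 10 arrays in red. Filled points mark arrays with detection in Cy-5. Hoxa3 is the only gene with all points above 0, and 27 genes have all points below it.

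Detection, which reads each dye alone, gave a like split. In Cy-3, 26 Hox genes (72.2%) were detected on every array, close to the 73.2% of all genes. In Cy-5 only Hoxa3 and Hoxa7 were (5.56%), against 65.6% of all genes. This count was 6 without the array of C10-434 and 10 with the software's positive and significant flag in place of its flag for signals well above background. A further 8 Hox genes were detected in Cy-5 on 8 or 9 arrays, 8 on 1 to 5 arrays and 18 on none. Of all 18539 genes, 14624 were detected in Cy-5 on 8 or more arrays and 1814 on none. Of the 18 Hox genes, 12 were detected by Cy-3 on every array (33.3% of the 36 genes), a pattern found in 133 of all genes (0.717%). In hemibrain, fewer cells with a Hox transcript and less of it per cell cannot be told apart.

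Hoxa3, which is needed for the thymus and parathyroid glands, was detected in hemibrain on every array and was the only detected Hox gene called higher. Its Cy-5 signal was 339 at the lowest, 587 at the median and 720 at the highest, and its Cy-3 signal was 192, 393 and 444. The log2 ratio ran from 0.44 on C10-437 to 1.01 on C10-435, above 0 on all 10 arrays, with a mean of 0.67 ± 0.21 (SD, n = 10; limma, adjusted p = 4.06e-06). This mean lies just past the 1.5-fold limit, and with normexp background correction it was 0.48 and no longer passed. The second Hoxa3 probe went the other way. Its log2 ratio was -2.50 at the lowest, -2.24 at the median and -0.85 at the highest, with a mean of -1.996 ± 0.58, and it was detected on 0 arrays in Cy-5 and 9 in Cy-3. Which part of the gene each probe reads was not analysed here, and the direction for Hoxa3 rests on the choice of probe.

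Hoxa7, a gene of the thoracic region, was the other Hox gene detected in Cy-5 on every array. Its Cy-5 signal was 299.9, 378 and 541 (lowest, median, highest) and its Cy-3 signal 2415, 4625 and 5819. The log2 ratio lay between -3.98 and -3.01, with a mean of -3.54 ± 0.31 (limma, adjusted p = 3.06e-12), an 11.6-fold lower signal in hemibrain. The gene was thus measured in both RNAs, and the lowest Cy-3 signal of any array lay above the highest Cy-5 signal.

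The Hoxb genes Hoxb6, Hoxb7 and Hoxb9, of the trunk part of their cluster, were detected in Cy-5 on all arrays but C10-434. Hoxb6 had Cy-5 signals of 94.3, 154 and 225 and a mean log2 ratio of -3.50 ± 0.34 (limma, adjusted p = 6.93e-12). Hoxb7 had Cy-5 signals of 129, 191 and 303 against Cy-3 signals of 1620, 3370 and 4007, with a mean of -4.03 ± 0.47 (limma, adjusted p = 1.94e-11). Hoxb9, which takes part in the thoracic motor neuron program, had Cy-5 signals of 83.1, 114 and 165 and a mean of -4.26 ± 0.48 (limma, adjusted p = 1.33e-11). The spread over arrays of these 3 genes was small beside the 11.3-fold to 19.2-fold differences. The second Hoxb9 probe was lower as well, at -3.29 ± 0.82. Hoxb7 is on the gene list of the study, which was chosen on arrays of the same study.

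Hoxa9, known from blood stem cells and leukaemia, was also detected in Cy-5 on all arrays but C10-434. Its Cy-5 signal was 90.4, 110 and 159 and its Cy-3 signal 1153, 2237 and 3010, with a mean log2 ratio of -4.20 ± 0.37 (limma, adjusted p = 2.18e-12). Hoxc9, which sets the thoracic motor columns of the spinal cord, gave the lowest mean ratio among the Hox genes detected in Cy-5 on 8 or more arrays. Its Cy-3 signal was 5272, 10558 and 12617, while its Cy-5 signal was 52.8, 71.2 and 142, with detection on 8 arrays. The log2 ratio ran from -7.90 on C10-413 to -6.07 on C10-415, with a mean of -7.03 ± 0.56 (limma, adjusted p = 5.68e-13), a 131-fold lower signal. Hoxc10, a lumbar gene, was detected in Cy-5 on 8 arrays too, with signals of 39.4, 79.3 and 158 and a mean log2 ratio of -4.25 ± 0.60. Its second probe, which Cy-5 did not detect on any array, had a mean of -3.47 ± 0.62.

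Of the 10 genes detected in Cy-5 on 8 or more arrays, Hoxa6, Hoxd12 and Hoxa3 had mean ratios nearest 0. Hoxa6 was detected in Cy-5 on 8 arrays, with signals of 45.8, 146 and 224 against Cy-3 signals of 128, 263 and 308. Its log2 ratio was -1.48 at the lowest, on C10-434, and -0.29 at the highest, with a mean of -0.81 ± 0.32 (limma, adjusted p = 9.20e-06), or 1.76-fold lower. With normexp background correction the mean was -0.19 and did not pass. Hoxd12, a gene of the distal limb, had Cy-5 signals of 28.4, 103 and 171 and Cy-3 signals of 30.1, 111 and 184. Its mean log2 ratio was -0.13 ± 0.15 (limma, adjusted p = 0.0865), so no difference passed the test, and 9 of 10 arrays were below 0. Each dye detected Hoxd12 on 8 arrays.

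**Figure D2:**
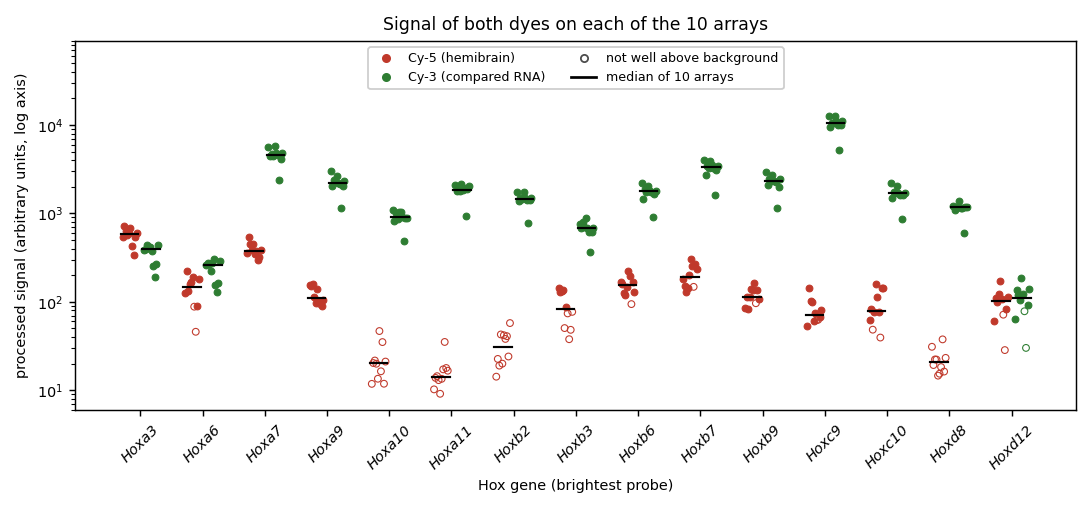
Processed signal (arbitrary units, log axis) in Cy-5 (red) and Cy-3 (green) of the Hox genes described one by one, 1 point an array, with open points where the gene was not detected and black bars at the median of 10 arrays. Only Hoxa3 has its Cy-5 points above its Cy-3 points as a group, with medians of 587 and 393.

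For the 12 genes that Cy-3 showed on every array and Cy-5 on none, the hemibrain signal was not well above background, so their folds are given as approximate bounds. The bound sets the mean Cy-3 signal against a Cy-5 signal held at no less than the lowest detected one of each array, after the brightness of the arrays was made alike, and it is open to dye bias. That lowest signal is no strict limit, since brighter probes can lack detection. On C10-425 it was 66.8 before this step, and Hoxa6 at 88.1 was not detected. Hoxa11, which patterns the forearm and the kidney, was at least 33.8-fold lower in hemibrain. Its Cy-3 signal was 937, 1865 and 2130, and its Cy-5 signal 9.11, 14.1 and 35.2. Hoxb2, a gene of hindbrain segments and of the facial motor nucleus, was at least 26.8-fold lower, with Cy-3 signals of 782, 1470 and 1760. Hoxd8 was at least 20.9-fold lower, with Cy-3 signals of 601, 1183 and 1375. Hoxa10, needed in the uterus and the lumbar spine, was at least 16.7-fold lower, with Cy-3 signals of 493, 904 and 1087. For these 4 genes the lowest Cy-3 signal on any array lay above the highest Cy-5 signal.

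The other 8 genes of this kind had bounds from 3.76-fold for Hoxc12 to 14.6-fold for Hoxb5. Hoxd4, a gene of the caudal hindbrain and neck, was at least 9.61-fold lower and Hoxd9 at least 7.34-fold lower. Hoxc8, of the brachial cord, was at least 5.69-fold lower and Hoxb13, known from the prostate, at least 5.45-fold lower. Hoxa2, which the second branchial arch needs for its identity, was at least 5.24-fold lower and Hoxa5, needed in the lung, at least 5.14-fold lower. All 12 passed the limma test, with adjusted p from 1.99e-11 to 1.18e-08. The mean measured ratios behind the bounds, -6.90 to -3.59, use Cy-5 values that were not well above background.

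Another 8 genes were detected in Cy-5 on only 1 to 5 arrays. Hoxb3, which acts with Hoxa3 in the hindbrain and is on the gene list of the study, was detected on 5. Its Cy-5 signal was 37.8, 82.5 and 142, its Cy-3 signal 369, 685 and 877, and its mean log2 ratio -3.01 ± 0.58 (limma, adjusted p = 2.64e-09). The second Hoxb3 probe was lower still, at -4.66 ± 1.099, and detected in Cy-5 on 1 array. Hoxb4 had a mean of -2.72 ± 0.63 with detection on 4 arrays. Hoxa4 had a mean of -2.76 ± 0.85 with detection on 3 arrays, and its second probe gave -1.40 ± 0.91.

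Hoxb8, known from the excessive grooming of its mutants, was lower by its brighter probe but not by the other. The brighter probe had a mean log2 ratio of -2.12 ± 0.62 (limma, adjusted p = 1.57e-07), with detection on 1 array in Cy-5 and 6 in Cy-3. The other, at 0.40 ± 0.72 (limma, adjusted p = 0.0893), was not detected on any array in either dye. With normexp background correction the brighter probe was at -0.29 and did not pass. Hoxc13, needed for hair, had a mean of -2.53 ± 0.39 with Cy-5 detection on 1 array. It was at -0.54 with normexp, under the fold limit. Hoxc5 was barely past that limit, at -0.63 ± 0.38, and fell short of it with loess (-0.45) and normexp (-0.12), and Hoxd3, at -0.28 ± 0.34, did not reach it. Of the 10 genes with 2 probes, 4 had probes that differed by over 1 log2 unit or in the call (Hoxa3, Hoxa4, Hoxb3 and Hoxb8), and the calls were opposite only for Hoxa3.

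The remaining 6 genes had little or no signal. Hoxb1, Hoxd1, Hoxd11 and Hoxd13 were not detected in either dye on any array. Hoxd1 was called higher, with a mean log2 ratio of 0.68 ± 0.55 (limma, adjusted p = 0.00166) and 9 of 10 arrays above 0. Its Cy-5 signals of 14.02, 22.8 and 41.5 and Cy-3 signals of 10.05, 13.4 and 24.7 were not well above background, so the call compares values near background and no fold is given. Hoxb1, which gives the facial motor neurons their identity, was printed 10 times on each array. Its mean was 0.12 ± 0.13 over arrays, while the SD among its spots within an array was 0.06 to 0.60. Hoxd11 and Hoxd13, genes of the forearm and the digits, had means of -0.32 ± 0.68 and 0.09 ± 0.18 and were neither lower nor higher. Hoxa13, another gene of the digits, was detected in Cy-3 on 4 arrays and in Cy-5 on none, with a mean of -0.09 ± 0.58, whose sign turned with loess (0.077). Hoxd10 was called lower at -1.496 ± 0.60, with detection in Cy-3 on 6 arrays and in Cy-5 on none, and with normexp it was at -0.07 and did not pass.

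Lower genes were found in every cluster, with the smallest shares in Hoxd and among the genes of the hindbrain end. Of the Hoxa genes, 9 of 11 were lower, with a median of -4.20. The counts were 9 of 10 for Hoxb (median -3.77), 6 of 6 for Hoxc (median -3.84) and 4 of 9 for Hoxd (median -0.32). By paralog number, 4 of the 8 genes numbered 1 to 3 were lower (median -1.64), as were 13 of the 13 numbered 4 to 8 (median -3.54) and 11 of the 15 numbered 9 to 13 (median -3.67). The genes that Cy-3 detected on every array numbered 3 of 9 for Hoxd, against 10 of 11, 8 of 10 and 5 of 6 for Hoxa, Hoxb and Hoxc. The smaller count for Hoxd thus comes with fewer Hoxd genes that were measurable in either RNA. Of the 8 genes numbered 1 to 3, Cy-3 detected 5 on every array, and 4 of these 5 were lower. The gene of these 5 not called lower was Hoxa3, whose second probe was lower. For numbers 4 to 8 and 9 to 13, Cy-3 detected 11 and 10 genes on every array, and all of them were lower. Differences between clusters or paralog groups were not tested.

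**Figure D3:**
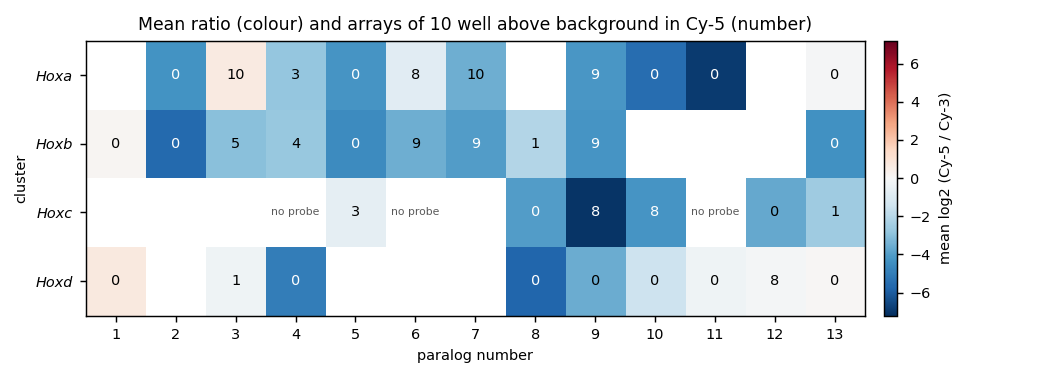
Hox clusters (rows) by paralog number (columns), coloured by the mean log2 Cy-5 over Cy-3 of 10 arrays, with the number of arrays with detection in Cy-5 written in each cell. White cells have no gene or are not shown, or have no matched probe where marked. Blue, for less signal from hemibrain, fills most of Hoxa, Hoxb and Hoxc, and the count of 10 is reached only by Hoxa3 and Hoxa7.

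The Hox genes as a set read alike on all arrays but C10-434. The median of the 36 log2 ratios was -2.52 on C10-434, and the other 9 arrays had -3.83 to -3.45. Within the 2 slides that held 4 arrays each, it ran from -3.68 to -3.54 on one and from -3.58 to -2.52 on the other, which held C10-434. Between 30 and 33 of the 36 genes were below 0 on each array. C10-434 gave the highest ratio for 19 of the 36 genes, 17 of them among the 26 with Cy-3 signal on every array. On this array the lowest detected Cy-5 signal of all probes was 125, where the others had 37.4 to 66.8. Only 2 Hox genes were detected there in Cy-5, while each of the others had 7 to 14. Without C10-434, 6 genes were detected in Cy-5 on every array: Hoxa3, Hoxa7, Hoxa9, Hoxb6, Hoxb7 and Hoxb9.

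**Figure D4:**
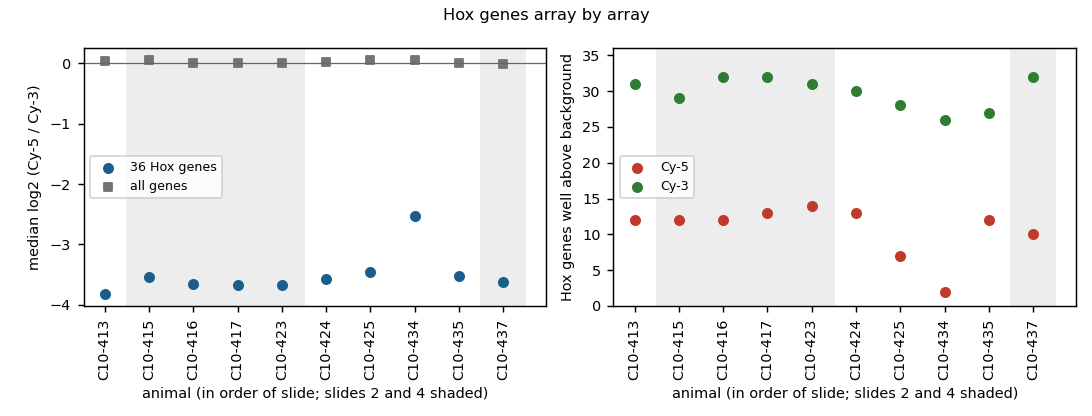
Left, the median log2 ratio of the 36 Hox genes and of all genes on each array. Right, the number of Hox genes detected in each dye. Animals are ordered by slide, with slides 2 and 4 shaded. C10-434 has a Hox median of -2.52 and 2 genes detected in Cy-5, apart from the other 9 arrays in both.

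Transcripts of the proteins that bind DNA together with Hox proteins were readily detected in hemibrain. Of the 9 Pbx, Meis and Pknox genes, 5 were higher (55.6%, against 30.6% of all genes) and 1 was lower (11.1%, against 30.8%). The other 3 were neither, and the list median was 0.79. Pknox2 had a log2 ratio of 2.20 at the lowest, 2.77 at the median and 3.29 at the highest, and a mean of 2.73 ± 0.32. Pbx4 had a mean of 2.25 ± 0.18 and Meis2, a factor of striatal and olfactory neurons, 1.88 ± 0.33. Meis1 was the lower member, at -1.15 ± 0.30. Detection in Cy-5 covered every array for 8 of the 9 genes (88.9%, against 65.6% of all genes).

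Of 13 genes that act on the Hox clusters from upstream, 12 were measured (Cyp26c1 had no matched probe). Of these, 4 were higher (33.3%, close to the 30.6% of all genes), 2 were lower (16.7%, against 30.8%) and 6 were neither, with a median of 0.20. Rarb, a retinoic acid receptor that retinoic acid itself induces, was higher at 2.68 ± 0.22, and Aldh1a2, the enzyme that makes retinoic acid in the embryo and in meninges, at 2.15 ± 0.18. Rarg, another receptor, was lower at -2.11 ± 0.27. The caudal factors Cdx1, Cdx2 and Cdx4 were not detected in either dye on any array. Of the neighbours of the clusters and the ParaHox genes, 5 were measured (Mnx1 had no matched probe). Of these 5, 3 were higher (60%, against 30.6% of all genes) and none was lower. The Cdx genes were counted with the upstream genes and not here. Of the 3 higher genes, 2 were dim in Cy-3 and are named for that reason. Evx1 was detected on 2 arrays in Cy-5 and 0 in Cy-3, and Gsx2 on 8 and 5. Evx2, which lies beside Hoxd13, was higher at 1.78 ± 1.14, with arrays from -0.05 to 3.19.

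Genes of the complexes that silence or activate Hox clusters were more often lower than higher. Over all genes, 30.8% were lower and 30.6% higher. Among genes detected in Cy-3 on every array, as all of these were, the shares were 38.2% and 28.5%. Of the 10 genes of Polycomb repressive complex 2 (PRC2), 6 were lower and 2 higher, with a median of -1.30. Ezh2, the methyltransferase subunit of dividing cells, was lowest, between -3.97 and -3.59 on the arrays with a mean of -3.82 ± 0.11. Phf19 followed at -2.47 ± 0.37 and Suz12 at -2.25 ± 0.25. Ezh1, the methyltransferase subunit known from resting cells, was higher at 0.92 ± 0.35. It was named after its value was seen, as the counterpart of Ezh2. In Polycomb repressive complex 1 (PRC1), 6 of 12 genes were lower and 3 higher, with a median of -0.36. Cbx2 was lower at -2.66 ± 0.24 and Rnf2, a ubiquitin ligase subunit, at -1.40 ± 0.35, while Cbx7 was higher at 1.99 ± 0.26. Of 10 Trithorax and demethylase genes measured (Kmt2a had no matched probe), 5 were lower and none higher, with a median of -0.55. Kdm6b was at -0.81 ± 0.29, Wdr5 at -0.80 ± 0.15 and Psip1 at -0.76 ± 0.45.

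Markers of regions and cell types give what else the hemibrain RNA held. Of 12 forebrain genes, 10 were higher (83.3%, against 30.6% of all genes) and none lower (median 1.81). Among the higher ones were Lhx2 at 4.21 ± 0.33 and Emx1 at 2.01 ± 0.32. Of 10 cerebellar genes, 7 were higher and none lower (median 1.39), with Cbln1 at 3.87 ± 0.34. Cy-5 detected 6 of the 10 on every array (60%, near the 65.6% of all genes). Gabra6 at 0.698 ± 1.33 and Cbln3 at -0.52 ± 0.91 were neither, each with detection in Cy-5 on 1 array. These genes were named after their values were seen. Both had their highest ratio on C10-413, as did the median of the list. Of 12 hindbrain genes measured (Slc6a5 had no matched probe), 3 were higher and 3 lower, 25% each, which is near the shares of all genes, with a median of 0.03. Gata3 was lower at -2.24 ± 0.49. Slc6a4 and Tph2, which mark the serotonin neurons of the brainstem and were picked with their values in view, were detected in Cy-5 on 9 arrays each, at 3.96 ± 1.65 and 2.79 ± 1.32, with C10-434 the lowest for both. The other serotonin neuron genes of the list, Fev at 0.03 ± 0.21 and Lmx1b at 0.03 ± 0.37, were neither higher nor lower. The summed Cy-5 signal of the hindbrain genes was 912 to 3701 and their summed Cy-3 signal 2215 to 4726.

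Of the other lists, those of proliferation and of meninges and mesenchyme had the lowest medians. Of 11 meningeal and mesenchymal genes, 9 were lower (81.8%, against 30.8% of all genes) and 1 higher, with a median of -2.95. Col1a1, a collagen of fibroblasts and bone, was at -5.58 ± 0.29. The higher gene was Slc6a13, at 2.52 ± 0.19, and Lum, at -0.23 ± 0.36, was neither, both named after their values were seen. The summed signal of the 11 genes was 28090 to 52502 in Cy-5 and 387825 to 948657 in Cy-3. The 8 proliferation genes summed to 4911 to 8448 in Cy-5 and 121556 to 292647 in Cy-3, with Mki67 at -6.39 ± 0.23. All 11 mesenchymal and all 8 proliferation genes were detected in Cy-3 on every array. Of 4 blood genes measured (Hbb-b1 had no matched probe), 2 were higher (50%, against 30.6% of all genes), with Hba-a1 at 4.17 ± 0.26. Whether cells of these kinds in the Cy-3 RNA carried its Hox signal was not tested.

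**Figure D5:**
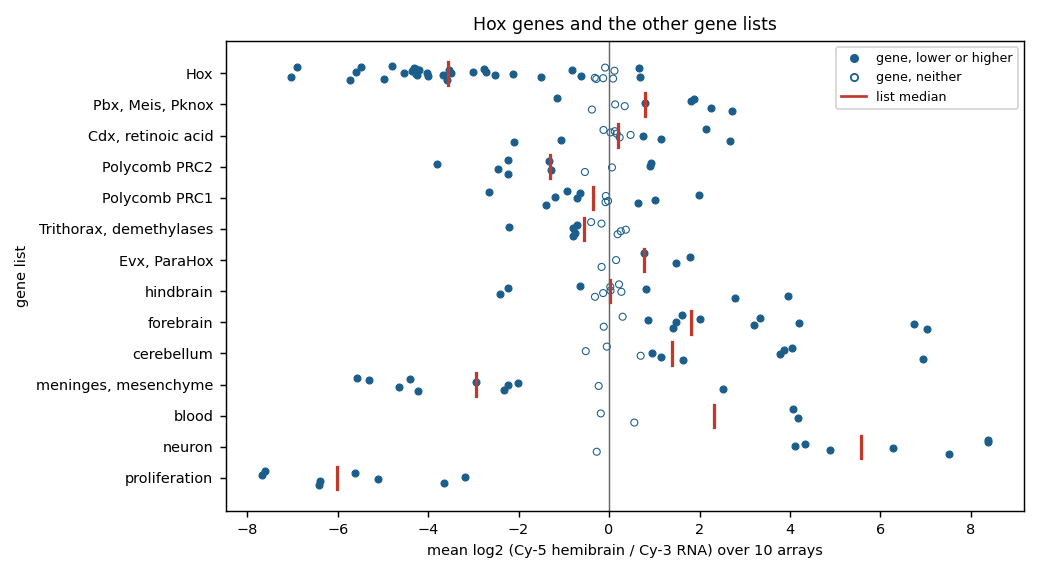
Mean over 10 arrays of log2 Cy-5 over Cy-3 (horizontal axis) of each gene of the Hox set and of 13 other lists, filled where the gene was lower or higher by the rule, with the list median as a red bar. The Hox median of -3.56 lies between the medians of the meningeal and mesenchymal list (-2.95) and of the proliferation list (-6.01).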

How the data were processed

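RNA of 10 left hemibrains (Cy-5) was hybridized against another RNA (Cy-3) on Agilent arrays. Per the file headers, signals were extracted with Feature Extraction 10.10.1.1. The deposited signals are intensities, per the file headers background-subtracted and dye-normalized. The authors also deposited a log2 value per probe and array, which matched log2 Cy-5/Cy-3 (correlation across probes at least 0.997). The unit and direction of that table were found from this match, and its column medians ran from -0.05 to 0.10.

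Control spots were left out, spots with an outlier flag were set aside (104 to 630 per array) and the spots of a probe were averaged. A probe with several spots was taken as detected where the flag was set in at least 0.5 of them. The deposited flags were used as given, and the deposited log10 ratio of each spot served to identify that table. Of 41174 probes, 27198 matched a gene of the RefSeq table (assembly GRCm38.p6, used for names and promoter sequences). The build in the file headers differs, so no coordinates were carried over. The ratio of processed signals was fitted with limma 3.58.1 (R 4.3.3), intercept only, with no further normalization. Lists were described by counts and medians. The members and lists were chosen with earlier results of these data known.

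A Hox gene counted among the 36 is not reported here by name. The genes named are the other Hox genes, with values for the 10 most often detected in Cy-5, the 5 of lowest ratio among those detected in Cy-3 on every array, Hoxb3, Hoxb7 and genes whose probes disagree, and from each other list up to 3 genes of largest ratio detected in both dyes on every array. Alternatives were loess (span 0.3), median centring, normexp (offset 50, on median signals, since mean signals are not in the columns used), the deposited table, only probes above background, slide as a random block, leaving out C10-434, fold limits, the positive and significant flag, and any probe of a gene. Gene-level counts and the Cy-3 detection alternatives were added after the data were seen. The number of arrays limits the precision. Figures were drawn with Python 3.11.15.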

Additional observations from a re-analysis of the deposited data

Results flagged for a closer look

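A value was set apart when its gap to the nearest other array was large against the range of the 10 arrays (Dixon's criterion, at 95%). Of 39 measures tested, 7 were set apart, where chance alone sets apart about 1 in 20. The measures share the same 10 arrays, and the median over the Hox genes is among them, so they are not independent. Of the 7, 5 were on C10-434. On C10-434 the log2 ratio was nearer 0 than on the other 9 arrays for Hoxa5 (-2.29, others -4.97 to -4.19), Hoxa11 (-4.74, others -7.87 to -6.71), Hoxc12 (-1.63, others -4.76 to -3.30) and Hoxd8 (-4.00, others -6.56 to -5.29), none of which Cy-5 detected on any array. The median over the Hox genes was -2.52 there, against -3.83 to -3.45. This array had the weakest Cy-5 signal over all probes. Its median Hox signal was 35.1 in Cy-5, with the others at 22.9 to 42.8, and 179.5 in Cy-3, with the others at 287 to 419. Hoxa5, Hoxa11, Hoxc12 and Hoxd8 each had their highest Cy-5 signal of the 10 arrays there, at 33.5, 35.2, 33.9 and 37.6. Each of them also had its lowest Cy-3 signal there, at 164, 937, 105 and 601. The part of either dye in these values was not tested. On C10-435 Hoxc5 was at -1.61, with the others at -0.76 to -0.23. On C10-417 Hoxd12 was at 0.23, with the others at -0.30 to -0.07.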

How the results depend on the processing

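Over all alternatives run, the count of Hox probes called lower was 27 to 35 and that of Hox genes 23 to 29, all within 1.5 times the reported counts. The 2 higher calls, probes or genes, became 0 with normexp background correction and 1 where only probes well above background in at least 1 dye on every array were kept. Under these settings the median log2 ratio of the Hox genes was -0.79 and -4.23, in place of -3.56. The offset of 50 that normexp adds to each dye pulls the ratios of dim probes toward 0 by its construction, and the filter leaves 26 Hox genes. Hox genes detected in Cy-5 on every array numbered 10 with the positive and significant flag and 6 without C10-434, in place of 2. Of 242 values of single genes under the alternatives, 232 kept their direction and their side of the limits. This total pools settings that change the ratios little with settings that change them more. All 36 Hox genes stayed the same with the deposited table, median centring and slide as a random block. With loess 34 stayed the same, and with normexp 28. Hoxa13, called neither lower nor higher, turned from -0.09 to 0.077 with loess and to 0.0060 with normexp and stayed uncalled. The other 8 values kept their direction and no longer passed: Hoxa3, Hoxa6, Hoxb8, Hoxc5, Hoxc13, Hoxd1 and Hoxd10 with normexp and Hoxc5 with loess. The cause was not tested. No paired analysis was possible because there was 1 group. Signal over background limits Cy-5 most, so 12 genes have bounds only.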
